A study of Mus musculus with 8 samples.

Results

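The genes described here are the enzymes of cholesterol and fatty acid synthesis and the genes that control sterol levels, 33 symbols found by name among the 25230 genes of the count table. They comprised 18 sterol synthesis enzymes, 9 genes of sterol regulation and transport and 6 fatty acid synthesis enzymes, and all 33 passed the filter on low counts that left 14691 genes for testing. The counts came from intraepithelial lymphocytes (IELs), T cells lying within the epithelium of the gut, of C57BL/6J mice. Every animal was injected with 35 µg of anti-CD3, an antibody that triggers the T cell receptor complex, so both groups shared that stimulus and no mouse without anti-CD3 was compared. The 4 PBS mice received no further drug, and the 4 Ex4 mice were also given 10 nmol/kg of exendin-4, a peptide that activates the GLP-1 receptor. IELs were prepared after 3 hours on Percoll and sorted for CD45, which all leukocytes carry, so the gate did not select T cells. Nothing in the labels gives the age of the animals.

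Cholesterol is built from acetyl-CoA through mevalonate and farnesyl diphosphate to squalene, which is closed into lanosterol and then trimmed to cholesterol. Fatty acid synthesis starts from the same acetyl-CoA, supplied from citrate, and its products are lengthened and desaturated. Transcription of both branches is driven by SREBP proteins, which the escort protein SCAP carries out of the endoplasmic reticulum when sterols are low and which INSIG proteins hold back when sterols are high. Dividing T cells are known to switch on both branches to make membrane.

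SREBP proteins act on sterol response elements, commonly together with NF-Y, the factor that binds CCAAT. Promoter windows from RefSeq (GRCm38.p6) were matched to 26 of the 33 genes, and the 250 bases before each listed start were searched on both strands for CCAAT and for TCACNCCA, a core of the sterol response element. CCAAT was present before at least 1 start of 14 of the 15 sterol enzymes with a window, Acat2 being the exception, against 40.1% of the 11585 tested genes with a window and 37.5% of all 27025 genes with one. It was present in 4 of 7 regulation and transport genes and in 1 of 4 fatty acid enzymes, Fasn. In the sterol enzymes the 29 matches lay from 12 to 237 bases before the start with a median of 60, and 9 enzymes had a window with at least 2. TCACNCCA was found in 3 of the 26 genes, Hmgcs1, Msmo1 and Srebf2, against 4.08% of tested genes with a window. By set this was 2 of 15 sterol enzymes, 1 of 7 regulation and transport genes and 0 of 4 fatty acid enzymes. A match to these letters is a description and shows no binding, and the absence of a match says nothing of the factor.

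The following 3 promoters are shown because Hmgcs1 had the highest level per length, Mvd stood far higher in 1 library and Fasn separated the groups. Each is the 250 bases before a RefSeq start, 5′ to 3′ on the strand of the gene, with CCAAT or its reverse complement and TCACNCCA in capitals. Hmgcs1 is at chr13:119690101-119690350 on the plus strand, Mvd at chr8:122443423-122443672 on the minus strand and Fasn at chr11:120824548-120824797 on the minus strand, and none of these windows overlapped an annotated exon of GENCODE M21. In Fasn a forward and a reverse match overlap in 1 run of capitals.
Hmgcs1: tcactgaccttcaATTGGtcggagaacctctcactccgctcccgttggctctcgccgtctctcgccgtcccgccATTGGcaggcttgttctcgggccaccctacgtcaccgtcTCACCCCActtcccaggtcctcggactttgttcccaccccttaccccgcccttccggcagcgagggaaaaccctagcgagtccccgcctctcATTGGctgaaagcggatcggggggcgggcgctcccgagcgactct
Mvd: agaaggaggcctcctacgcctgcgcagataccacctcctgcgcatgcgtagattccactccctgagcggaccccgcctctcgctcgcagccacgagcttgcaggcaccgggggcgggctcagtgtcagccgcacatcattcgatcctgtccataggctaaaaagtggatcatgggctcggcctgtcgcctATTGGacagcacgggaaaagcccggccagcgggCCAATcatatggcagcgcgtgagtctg
Fasn: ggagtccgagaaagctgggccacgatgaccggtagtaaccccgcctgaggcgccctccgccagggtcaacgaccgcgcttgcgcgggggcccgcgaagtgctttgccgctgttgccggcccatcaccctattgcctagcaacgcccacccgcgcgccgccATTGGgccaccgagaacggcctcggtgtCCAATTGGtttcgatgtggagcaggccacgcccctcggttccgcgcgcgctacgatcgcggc

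The comparison asked how exendin-4 altered these genes in IELs stimulated through CD3. No member passed the edgeR quasi-likelihood test with Benjamini-Hochberg adjustment over all genes, where 0.0136% of genes tested were called, and none was called by DESeq2 or limma-voom. Of the 33, 3 were lower with exendin-4 at an unadjusted p under 0.05 in edgeR, Fasn, Acaca and Scd2, all of the fatty acid branch, and 0 were higher, beside 3.9% and 3.71% of all genes. In bulk RNA of this kind fewer cells of a type and less RNA per cell cannot be told apart. The fitted log2 fold change was below 0 for 28 of 33 members, among them 17 of 18 sterol enzymes, 7 of 9 regulation and transport genes and 4 of 6 fatty acid enzymes, where 47.1% of all genes were below 0. The medians were -0.31, -0.08 and -0.27 for these 3 sets, and 0.02 over all genes tested.

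The replicate PBS 1 stood apart in the sterol branch. It was the highest of the 8 libraries for 14 of 18 sterol enzymes, while it was the highest for 15.9% of all genes tested. Its level over these enzymes was a median of 1.63 times the mean of the other 3 PBS libraries, taken on a log2 scale. The same median was 1.01 times over all genes. The mean log2 CPM (CPM being counts relative to the TMM-scaled library total) of the 18 enzymes was 6.66 in PBS 1 and from 5.84 to 6.05 in PBS 2 to 4. In the Ex4 group it ran from 5.57 in Ex4 3 to 6.20 in Ex4 2, so that Ex4 2 lay above 3 of the 4 PBS libraries and the groups overlapped. Ex4 3 was the lowest library for 9 of the 18 enzymes and for 15.6% of all genes tested. Among the 7 libraries other than PBS 1, Ex4 2 was the highest for 11 of the 18 and for 7.90% of all genes.

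**Figure D1:**
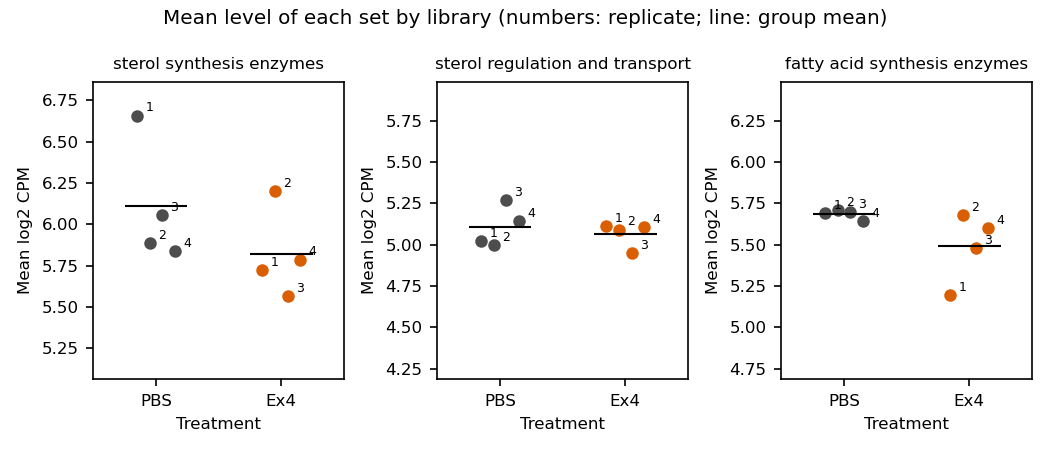
Mean log2 CPM of the genes of each set (vertical axis) in each library, grouped by treatment; the number beside a point is the replicate and the line is the mean of 4 libraries. PBS 1 lies at 6.66 in the sterol enzymes, above the other 7 libraries, whereas in the fatty acid enzymes the 4 PBS libraries lie between 5.64 and 5.71.

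Without PBS 1 the median of the sterol enzymes was -0.09, and 15 of 18 were below 0, against 47.2% of genes tested. In that fit 0 members passed the adjusted threshold, where 0.00658% of genes did. Fasn alone was lower at an unadjusted p under 0.05, and 0 members were higher, beside 3.08% and 2.66% of genes. For all 18 enzymes the log2 fold change moved upward when PBS 1 was left out. The median of the fatty acid enzymes was -0.14 without PBS 1 and that of regulation and transport -0.11.

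The groups did not overlap for 2 members, Fasn and Acaca, both lower with exendin-4, where 2.66% of all genes were separated in that direction and 2.29% in the other. The same 2 were separated without PBS 1, beside 3.76% and 3.36% of genes. The descriptions number the animals from 3 to 6 (PBS 1, PBS 2, Ex4 1 and Ex4 2) and from 11 to 19 (the rest), and no label calls these runs a batch. The median difference in log2 CPM of the sterol enzymes was -0.25 within the low numbers and -0.24 within the high numbers, against 0.03 and -0.01 over all genes. The low numbers hold PBS 1, and their other PBS library, PBS 2, had a mean log2 CPM of 5.89 over these enzymes, between the 5.72 of Ex4 1 and the 6.20 of Ex4 2. For the fatty acid enzymes the median difference was -0.23 within the low numbers and -0.10 within the high numbers.

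**Figure D2:**
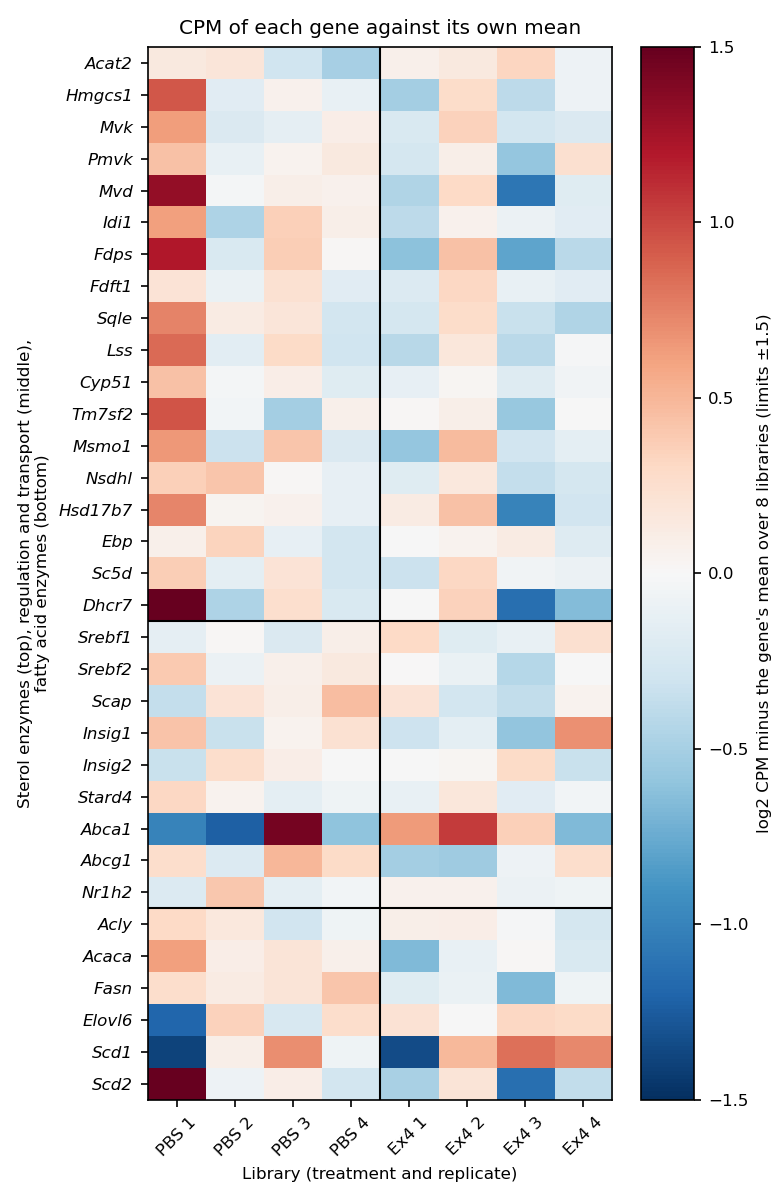
Log2 CPM of each of the 33 genes (rows) in each library (columns) minus the mean of that gene over the 8 libraries, with the colour scale cut at ±1.5; lines separate the treatments and the 3 sets of genes. PBS 1 is the highest library in 14 of the 18 sterol enzyme rows and is near opposite ends of the scale for Scd1 and Scd2.

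Total counts ran from 13386889 to 31843413 per library. CD3 subunit genes, Cd8a and the IEL integrin gene Itgae were present in all 8 libraries, with Cd3e at 581 to 1061 CPM, Cd8a at 953 to 2074 CPM and Itgae at 226 to 418 CPM. The summed level of 13 T cell and IEL markers was 64131 CPM in PBS 1, 83414 to 95926 CPM in PBS 2 to 4 and 88224 to 105166 CPM with exendin-4. Most of this sum came from Gzma, Gzmb and Ccl5, and single markers went both ways, with PBS 1 the lowest of 8 libraries for 6 and the highest for 4, Cd8a, Cd160, Cd244a and Xcl1. The sum of 22 epithelial markers was 842 CPM in PBS 1, lower than the 1116 to 1930 CPM of the other PBS libraries, and 564 to 1618 CPM with exendin-4. Of these 22 markers 17 had a lower mean log2 CPM with exendin-4, where the fitted change was below 0 for 47.1% of genes tested. So had 6 of 7 B and plasma cell markers, 5 of 13 T cell and IEL markers and 5 of 12 macrophage and dendritic cell markers. Among tested markers the same held for 4 of 7 of mast cells and innate lymphocytes, 2 of 4 stromal and endothelial and 0 of 5 neutrophil. The epithelial markers also went both ways in PBS 1, which was the lowest library for 10 and the highest for 3, Epcam, Cdh1 and Lgals4. The sum of 12 macrophage and dendritic cell markers was 280.2 CPM in PBS 1, 165 to 210 CPM in PBS 2 to 4 and 179 to 273 CPM with exendin-4. The 7 B and plasma cell markers summed to 1461 CPM in PBS 1, 844 to 906 CPM in PBS 2 to 4 and 256 to 2201 CPM with exendin-4. The 8 markers of mast cells and innate lymphocytes summed to 218 CPM in PBS 1 and 53.0 to 89.9 CPM in the other 7 libraries, and Kit made up 146 of the 218 CPM. Neutrophil markers summed to 3.11 to 40.4 CPM over all libraries, and stromal and endothelial markers to 42.1 to 94.3 CPM, with Col3a1 and Dcn below 1 CPM in every library. The part of these cells in the results was not tested.

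Among the 7 enzymes from acetyl-CoA to farnesyl diphosphate, the lowest unadjusted p-values were those of Mvd and Fdps. Mvd, which decarboxylates diphosphomevalonate, was at 100.3, 39.3, 42.7 and 42.1 CPM in PBS 1 to 4 and at 29.5, 49.5, 19 and 35.4 CPM in Ex4 1 to 4. PBS 1 was thus 2.43 times the mean of the other PBS libraries, which lay close together, and Ex4 2 exceeded those 3. The means were 56.1 ± 29.5 and 33.3 ± 12.7 CPM (SD, 4 libraries), and edgeR fitted a log2 fold change of -0.75 (SE 0.37, adjusted p = 0.686). It was -0.32 without PBS 1 (edgeR adjusted p = 0.969). Fdps, which makes farnesyl diphosphate, the branch point to sterols, prenyl groups and dolichol, was at 449, 167, 253 and 197 CPM with PBS and at 128, 265, 113 and 147 CPM with exendin-4. Here PBS 1 was again the highest, and 3 of the Ex4 libraries lay below all PBS libraries while Ex4 2 did not. Its means were 266 ± 127 and 163 ± 69.2 CPM, and its log2 fold change of -0.71 (SE 0.36, edgeR adjusted p = 0.686) became -0.34 without PBS 1.

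Hmgcs1, the cytosolic synthase that forms HMG-CoA, was at 509, 238, 279 and 249 CPM with PBS and at 187, 323, 204 and 253 CPM with exendin-4. PBS 1 held 1.99 times the mean of PBS 2 to 4, and the other 7 libraries were intermixed. Its log2 fold change was -0.40 (SE 0.25) and -0.09 without PBS 1. Idi1, the isomerase of the isoprenoid building blocks, was at 32.4, 15.3, 27 and 22.4 CPM with PBS and 16, 22, 19.8 and 18.7 CPM with exendin-4 (log2 fold change -0.34, -0.18 without PBS 1). Mevalonate is phosphorylated in sequence by the products of Mvk and Pmvk. Mvk was at 34.5, 19.3, 20.3 and 23.9 CPM with PBS and 19.1, 28.3, 18.4 and 19.2 CPM with exendin-4, where PBS 1 and Ex4 2 were the high libraries. Pmvk was at 109, 74, 83.4 and 88.4 and 66.7, 84.9, 53.5 and 94.4 CPM, with PBS 1 highest and Ex4 3 lowest. Their log2 fold changes were -0.21 and -0.24, and -0.00074 and -0.14 without PBS 1.

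Acat2, the acetoacetyl-CoA thiolase at the entry of the pathway, was the single sterol enzyme with a value above 0. It was at 157, 161, 115 and 100.1 CPM in the PBS libraries and at 149, 156, 176 and 135 CPM in the Ex4 libraries, so that PBS 3 and PBS 4 were the low ones and Ex4 3 the highest. In the fit it had a log2 fold change of 0.21 (SE 0.16, edgeR adjusted p = 0.82), 0.29 without PBS 1 and 0.08 without PBS 4. A near-identical copy, Acat3, lies beside Acat2 in the mouse genome, and how reads were divided between these 2 genes is unknown, which leaves both counts uncertain.

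In the 11 enzymes from squalene synthesis to cholesterol the log2 fold changes ran from -0.93 for Dhcr7 to -0.02 for Ebp, and from -0.28 to 0.03 without PBS 1. Nsdhl and Sqle had the lowest unadjusted p-values. Nsdhl, a dehydrogenase that removes methyl groups from the sterol ring, was at 66, 68.7, 52.3 and 47.3 CPM with PBS and 45.6, 57.4, 40.4 and 42.9 CPM with exendin-4. Both PBS 1 and PBS 2 were high, and Ex4 2 lay above PBS 3 and PBS 4. Its means were 58.6 ± 10.4 and 46.6 ± 7.54 CPM, with a log2 fold change of -0.33 (SE 0.16, edgeR adjusted p = 0.67) that was -0.28 without PBS 1, one of the smallest shifts among the sterol enzymes. Sqle, the epoxidase that commits squalene to sterols, was at 276, 179, 187 and 137 CPM with PBS and 138, 201, 131 and 121 CPM with exendin-4. Ex4 2 exceeded every PBS library except PBS 1. Its fitted log2 fold change of -0.40 (SE 0.21, edgeR adjusted p = 0.686) was -0.19 without PBS 1.

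Dhcr7, the reductase of the last step to cholesterol, had the most negative log2 fold change of the sterol enzymes. It was at 33.9, 6.72, 11 and 7.88 CPM with PBS and at 9.22, 11.8, 4.21 and 5.87 CPM with exendin-4, and PBS 1 was 3.98 times the mean of the other PBS libraries. These were low values, with 83 counts in the library that had fewest. Its value of -0.93 (SE 0.52, edgeR adjusted p = 0.721) was -0.14 (edgeR adjusted p = 0.988) without PBS 1, where the groups were intermixed.

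**Figure D3:**
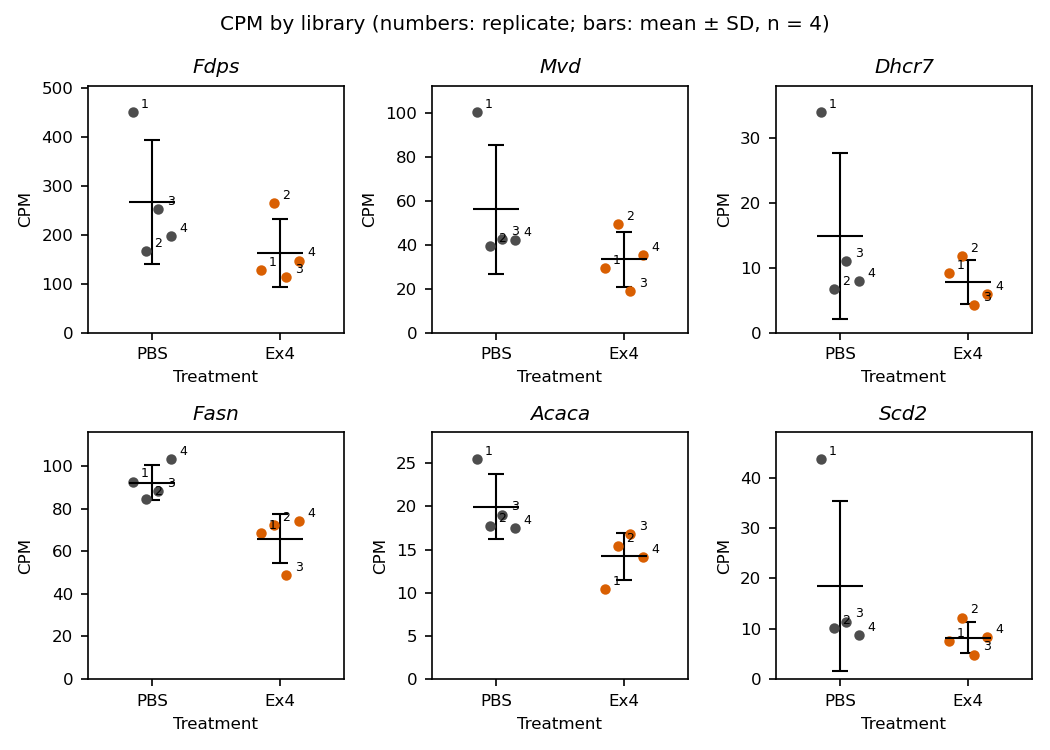
CPM of 6 genes (vertical axes from 0) by treatment, with a point for each library, its replicate number and the mean ± SD of 4 libraries. PBS 1 lies far above the other PBS libraries for Fdps, Mvd, Dhcr7 and Scd2, while for Fasn and Acaca all 4 PBS points lie above all 4 Ex4 points.

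Lss, which closes the rings to give lanosterol, was at 66.2, 32.9, 44.8 and 30 CPM with PBS and 27.6, 41.6, 27.8 and 36.3 CPM with exendin-4. Msmo1, an oxidase that helps remove methyl groups, was at 267, 136, 227 and 147 and 114, 236, 139.8 and 154 CPM. Hsd17b7, a reductase of the same process, was at 37.2, 23, 23.4 and 20.5 and 24.5, 30.4, 11.2 and 18.4 CPM. In all 3 genes PBS 1 was the highest library, Ex4 2 was above at least 2 PBS libraries, and the log2 fold changes of -0.38, -0.27 and -0.30 were -0.12, -0.09 and -0.08 without PBS 1. Cyp51, the lanosterol demethylase, was at 195, 141, 154 and 127 CPM with PBS and 132, 147, 126 and 139 CPM with exendin-4. Its Ex4 libraries spanned a range that held 2 of the PBS libraries, and its log2 fold change was -0.18 and -0.05 without PBS 1.

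Tm7sf2, a sterol reductase, had the lowest level per length of the sterol enzymes, at 1.20 ± 0.440 CPM per kb, and was at 9.67, 4.90, 3.52 and 5.29 CPM with PBS and 5.10, 5.34, 3.38 and 5.02 CPM with exendin-4. Apart from PBS 1 the 2 groups covered nearly the same range. The fitted change turned from -0.31 to 0.03 without PBS 1. Sc5d, a desaturase of the sterol ring, was at 171, 118, 152 and 109 and 105, 163, 127 and 124 CPM and likewise turned from -0.08 to 0.03. Fdft1, the squalene synthase, was at 153, 123, 156 and 118 and 115, 164, 122 and 118 CPM, with Ex4 2 the highest library (log2 fold change -0.08). Ebp, the sterol isomerase, was at 133, 159.6, 116 and 104 and 126, 131, 138 and 111 CPM, with PBS 2 the highest and a log2 fold change of -0.02. These last 2 enzymes did not share the PBS 1 excess to the same size. In that library they were at 1.16 and 1.05 times the mean of PBS 2 to 4. Nsdhl and Acat2 were at 1.18 and 1.25 times, and PBS 1 was the highest library for none of these enzymes.

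**Figure D4:**
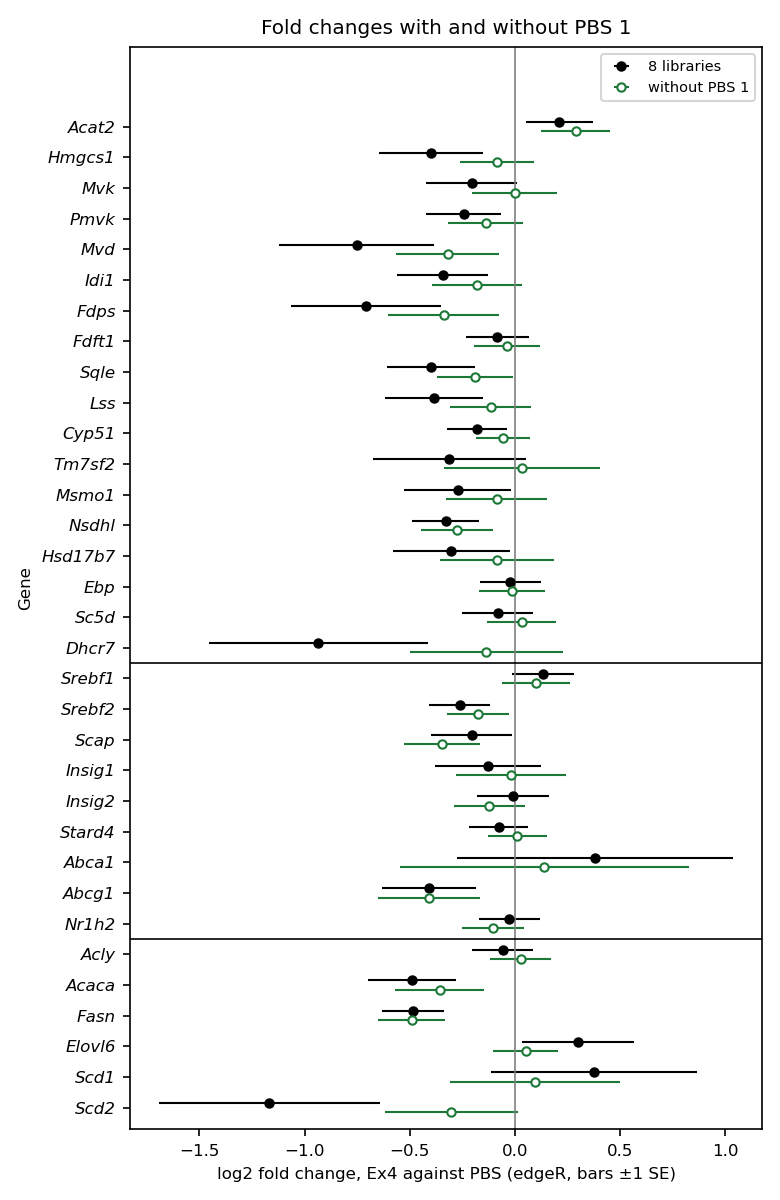
Log2 fold change of Ex4 against PBS (horizontal axis, edgeR fit over all genes, bars ±1 SE) for each gene with all 8 libraries (filled) and without PBS 1 (open). The sterol enzymes move toward or past 0 without PBS 1, except Acat2, which moves from 0.21 to 0.29, while Fasn is at -0.48 and -0.49.

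Neither SREBP gene passed the test. Srebf2, whose product chiefly drives the sterol branch, was at 87.7, 62.7, 70.3 and 74.1 CPM with PBS and 67.3, 62.5, 49.7 and 66.6 CPM with exendin-4. PBS 1 was its highest and Ex4 3 its lowest library, and the remaining 6 were intermixed. Its means were 73.7 ± 10.5 and 61.5 ± 8.17 CPM, and its log2 fold change was -0.26 (SE 0.15, edgeR adjusted p = 0.707) and -0.18 without PBS 1. Srebf1, whose product chiefly drives the fatty acid branch, was at 48, 53.1, 45.1 and 55.7 CPM with PBS and 64.6, 46.5, 48.5 and 62.1 CPM with exendin-4, with the highest values in Ex4 1 and Ex4 4. Exendin-4 against PBS gave a log2 fold change of 0.13 (SE 0.15, edgeR adjusted p = 0.886), and PBS 1 was 0.935 times the mean of PBS 2 to 4. The counts do not separate the 2 SREBP-1 isoforms of Srebf1.

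Scap, the SREBP escort gene, had the second lowest unadjusted p of the 5 control genes at 23.1, 34.2, 31.5 and 41 CPM with PBS and 34.3, 24.6, 23 and 30.8 CPM with exendin-4. Here PBS 1 was the lowest PBS library, 0.651 times the mean of the others, and the log2 fold change moved from -0.21 to -0.35 without it (edgeR adjusted p = 0.863 and 0.885). Insig1, itself a target of SREBP and the retention partner of SCAP, was at 74.1, 43.7, 57 and 64.2 CPM with PBS and 44.3, 49.7, 36.4 and 88.7 CPM with exendin-4. Ex4 4 was its highest library and Ex4 3 its lowest, so that the Ex4 group spanned the whole PBS range (log2 fold change -0.13, -0.02 without PBS 1). Insig2, the second retention gene, was at 27, 40.9, 36.7 and 34.1 and 34, 35, 41.6 and 27 CPM, with a log2 fold change of -0.01 and -0.12 without PBS 1.

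Of the 4 transport and LXR genes, Abcg1, an exporter of cholesterol from the cell and a target of LXR, was at 21.6, 15.6, 25.4 and 21.9 CPM with PBS and 12.6, 12.5, 17.1 and 21.6 CPM with exendin-4. Ex4 1 and Ex4 2 were its lowest libraries, while Ex4 3 and Ex4 4 lay within the PBS range. Its means were 21.1 ± 4.03 and 15.9 ± 4.33 CPM, and the log2 fold change of -0.41 (SE 0.22, edgeR adjusted p = 0.7) was -0.41 without PBS 1. Abca1, the other exporter, had few counts, at 0.722, 0.622, 3.92 and 0.956 CPM with PBS and 2.26, 3.01, 1.86 and 0.920 CPM with exendin-4, from 13 to 80 counts. PBS 3 held the highest value, ahead of Ex4 2, and the other 3 PBS libraries were among the lowest 4. Its log2 fold change was 0.38 (SE 0.66) and 1.36 without PBS 3.

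Stard4, which moves sterol between membranes and is an SREBP target, was at 72.1, 60.4, 52.7 and 55.6 CPM with PBS and 54.1, 65.6, 51.8 and 56.7 CPM with exendin-4. It was highest in PBS 1, and its log2 fold change turned from -0.08 to 0.01 without that library. Nr1h2, which encodes LXR-beta, the sensor of oxidised sterols, was at 159.9, 245, 167 and 180.3 and 194, 193, 175 and 177 CPM. PBS 2 was its highest and PBS 1 its lowest library, and the log2 fold change was -0.03 (-0.11 without PBS 1).

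In the fatty acid branch Fasn and Acaca separated the groups. Fasn, the synthase that builds palmitate, was at 92.6, 84.5, 88.4 and 103 CPM in PBS 1 to 4 and at 68.4, 72.3, 49 and 74 CPM in Ex4 1 to 4. Every Ex4 library lay below every PBS library, and PBS 1 was 1.01 times the mean of the other PBS libraries. The means were 92.2 ± 8.10 and 65.9 ± 11.5 CPM, and the fitted log2 fold change was -0.48 (SE 0.15), which passed in neither edgeR (adjusted p = 0.432) nor DESeq2 (adjusted p = 0.128). Its unadjusted p was 0.0049, the lowest of the 33 members. Without PBS 1 the value was -0.49 (edgeR adjusted p = 0.617), and differences within the low and the high numbers were -0.33 and -0.67. The annotated span of the gene (GRCm38) is chr11:120805958-120825166, and the start shown above lies inside that span.

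Acaca, the carboxylase that forms malonyl-CoA for Fasn, was at 25.5, 17.8, 19.1 and 17.5 CPM with PBS and 10.5, 15.4, 16.8 and 14.2 CPM with exendin-4. The groups did not overlap, although Ex4 3 and PBS 4 were close, and PBS 1 was the highest library. The means were 20 ± 3.76 and 14.2 ± 2.72 CPM, and the log2 fold change was -0.49 (SE 0.21, edgeR adjusted p = 0.607) and -0.36 without PBS 1. Acly, which supplies cytosolic acetyl-CoA from citrate to both branches, was at 237, 215, 158 and 184 CPM with PBS and 205, 206, 190.0 and 161 CPM with exendin-4. Its libraries were intermixed, and the log2 fold change turned from -0.06 to 0.03 without PBS 1.

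The 3 enzymes that lengthen or desaturate fatty acids differed in direction. Scd2, a stearoyl-CoA desaturase, was at 43.7, 10.1, 11.4 and 8.78 CPM with PBS and 7.62, 12.2, 4.86 and 8.28 CPM with exendin-4. PBS 1 was 4.32 times the mean of PBS 2 to 4, which overlapped the Ex4 libraries. Its log2 fold change of -1.17 (SE 0.52, edgeR adjusted p = 0.654) was the most negative of the 33 and was -0.30 without PBS 1 (edgeR adjusted p = 0.981). Scd1, its paralog and neighbour on chromosome 19, was at 5.49, 15.3, 23.3 and 13.7 CPM with PBS and 5.67, 20.2, 25.4 and 23.6 CPM with exendin-4. For Scd1 the same library PBS 1 was the lowest, at 0.315 times the mean of PBS 2 to 4, and Ex4 1 was nearly as low. Scd1 had a log2 fold change of 0.38 (SE 0.49), 0.09 without PBS 1, and reads shared between these paralogs make both counts uncertain.

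Elovl6, which lengthens palmitate to stearate, was at 138, 402, 267 and 379.9 CPM with PBS and 368, 313, 393 and 385 CPM with exendin-4. PBS 1 was the lowest library at 0.395 times the mean of the other PBS libraries, and PBS 3 the next lowest. Its log2 fold change of 0.30 (SE 0.27, edgeR adjusted p = 0.858) became 0.05 without PBS 1. In that library Scd1 and Elovl6 were thus the lowest of 8 while Scd2, Acaca and Acly were the highest of 8.

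Per kilobase of exon, levels of these genes can be set beside each other. Hmgcs1 had the highest mean at 61 ± 22.1 CPM per kb (SD over 8 libraries), followed by Acat2 at 56.5 ± 9.98, Nr1h2 at 55.6 ± 7.90, Ebp at 55.1 ± 7.58, Elovl6 at 51.4 ± 14.1 and Fdps at 51 ± 26 CPM per kb. The spreads of these 6 overlap, so their order is not firm. Fasn was at 7.22 ± 1.54 CPM per kb and Acaca at 1.00 ± 0.253 CPM per kb, and Srebf1 and Srebf2 were alike at 9.40 ± 1.30 and 9.41 ± 1.51 CPM per kb. Abca1 had the lowest level at 0.172 ± 0.117 CPM per kb. These lengths are the union of all annotated exons of each gene, which lowers the level of genes with long rare exons.

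Outside the 33 members, 23 further genes of sterol handling and 18 of fatty acid metabolism were examined, of which 23 and 17 were tested. In edgeR 0 of them passed over all genes. At an unadjusted p under 0.05, 3 of the sterol genes were lower (Gramd1b, Cyb5r3 and Aacs) and 1 was higher (Lipa), and of the fatty acid genes 0 were lower and 1 was higher (Acsl4), beside the 3.9% and 3.71% of all genes given above. Without PBS 1, Gramd1b was the only one of the sterol genes lower at that level and 0 were higher, while Acsl4 was again the 1 fatty acid gene. Groups were separate for Gramd1b and Aacs (lower) and Acsl4 (higher), against 2.66% and 2.29% of all genes. Gramd1b, which carries cholesterol from the plasma membrane to the endoplasmic reticulum, was at 148, 69.2, 63.1 and 58.4 CPM with PBS and 51.9, 50.5, 39.5 and 41.3 CPM with exendin-4. The groups did not overlap, and PBS 1 lay well above the rest. Gramd1b had a log2 fold change of -0.89 (SE 0.27, edgeR adjusted p = 0.432) and -0.48 without PBS 1. Aacs, which activates acetoacetate for lipid synthesis, was at 61.4, 38.3, 38.2 and 46.6 and 37.4, 34.6, 36.3 and 27.4 CPM and did not overlap either (log2 fold change -0.44, -0.28 without PBS 1). Cyb5r3, a reductase that feeds electrons to desaturases and sterol oxidation, had a log2 fold change of -0.41 (-0.30 without PBS 1) with overlapping groups.

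Acsl4, which attaches arachidonate and related fatty acids to CoA, was at 44.9, 44.1, 53.8 and 69.3 CPM with PBS and 76.3, 77.7, 89.8 and 95.1 CPM with exendin-4. All Ex4 libraries lay above all PBS libraries. Its fitted value of 0.68 (SE 0.16) missed the threshold in edgeR (adjusted p = 0.31) and passed in DESeq2 (adjusted p = 0.0284). Over all genes DESeq2 called 83 against 2 in edgeR, and 30 of its 134 calls in simulated data were false. The value for Acsl4 was 0.59 without PBS 1 (edgeR adjusted p = 0.575). Lipa, the lysosomal acid lipase that frees cholesterol from its esters, was at 26.8, 43, 37.7 and 30.3 CPM with PBS and 56.2, 39.5, 47.1 and 41.5 CPM with exendin-4, with the lowest Ex4 value below the highest PBS value. Lipa had a log2 fold change of 0.42 (SE 0.17, edgeR adjusted p = 0.587) and 0.31 without PBS 1.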

How the data were processed

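The authors deposited 1 table of whole-number counts per gene symbol, not normalised. STAR 2.7.9a, DESeq2 and mm10 are named, without their role, per the submitters' processing notes; the read counter is not given in the sources used here. Libraries were strand-specific mRNA libraries, per the labels, and the strand setting of the counting is not given. Columns were matched to mice by their descriptions, and 0 per-sample columns were left unused. The labels name no batch and do not say more of how animals were kept apart, so p-values measure the spread between these samples. Within groups no 2 libraries matched within counting error (mean chi-square per gene 22.4 or more), and all 8 were kept.

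Counts were fitted in edgeR 4.0.16 (R 4.3.3) with filterByExpr, TMM scaling, robust quasi-likelihood dispersions and Benjamini-Hochberg adjustment over 14691 genes, threshold 0.05. The SE is the log2 fold change over the root of F. DESeq2 1.42.0, limma-voom (3.58.1), other scalings and filters, a replicate block and each library left out were alternatives. The test was checked on data simulated from these counts. There edgeR called 6 of 67 genes changed 1.5 times, 36 of 67 changed 2 times and 43 of 66 changed 3 times. Of its 87 calls 2 were false, while 30 of the 134 calls of DESeq2 and 5 of the 83 of limma-voom were false. Most changes of 1.5 times were missed, so a gene that was not called may still have changed. Means of log2 CPM used a prior count of 2. Lengths came from GENCODE M21 and were found for all 33 genes. The members, lists, alternatives and the naming rule (called members, the 2 lowest p-values of each role group, Srebf1, Srebf2 and members moved over 1.5 times by PBS 1, with other pathway genes at an unadjusted p under 0.05) were chosen with earlier results of these data known. Figures were drawn with matplotlib 3.10.9.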

Additional observations from a re-analysis of the deposited data

Results flagged for a closer look

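For 33 genes and the means of the 3 sets, Dixon's ratio compared how far an end library lay from its neighbour with the range of its group of 4 in log2 CPM. The ratio passed its 95% limit in 6 of 72 groups, where chance passes about 1 in 20. PBS 1 was high for Mvd at 6.65 against 5.42 for its neighbour, and for Scd2 at 5.45 against 3.52. Among the Ex4 libraries, Ex4 2 was high for Mvk at 4.83, Ex4 3 was low for Tm7sf2 at 1.80 and for the mean of sterol regulation and transport at 4.95, and Ex4 1 was low for Scd1 at 2.53. No explanation was tested for these values.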

How the results depend on the processing

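Under all 17 alternatives 0 of the 33 genes were called, in either direction, and the lowest adjusted p of any of them was 0.128, for Fasn in DESeq2. The median log2 fold change of the sterol enzymes ran from -0.45 (without Ex4 2) to -0.09 (without PBS 1) with a library left out, and was -0.22 without Ex4 3; that of the fatty acid enzymes ran from -0.36 (without PBS 3) to -0.14 (without PBS 1). That of regulation and transport ran from -0.17 (without PBS 3) to -0.06 (without Ex4 3). The scaling, filter and tool alternatives gave -0.33 to -0.27 for the sterol enzymes.

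The sign of 25 genes was the same in each alternative, and that of the other 8 was not. With a library left out Tm7sf2 ran from -0.53 to 0.034, Ebp from -0.13 to 0.084, Sc5d from -0.23 to 0.032, Insig1 from -0.47 to 0.00014, Insig2 from -0.13 to 0.078, Stard4 from -0.17 to 0.011, Nr1h2 from -0.11 to 0.11 and Acly from -0.19 to 0.028. Insig2 was also 0.00052 with upper quartile factors and 0.016 in limma-voom. The cause was not tested.

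With the replicate block the medians were -0.29 for sterol enzymes, -0.27 for fatty acid enzymes and -0.07 for regulation and transport, with 0 members called, and over all genes 1 was called in place of 2. The labels do not say that a number marks shared animals or days, and correlations of deviations between same-numbered libraries were 0.09, -0.03, -0.24 and 0.14, so the numbers were not treated as pairs; of the 4 numbers, 1 correlated best with its own. Over all genes DESeq2 called 83, a fit with no filter called 8, the fit without PBS 2 called 14, and limma-voom, the term for the 2 runs of label numbers and the other fits with a library left out called 1 each, against 2. Depth limits Abca1, Tm7sf2, Dhcr7, Scd1 and Scd2 most, which had under 120 counts in at least 1 library.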

Other observations

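Dgat1, which encodes the enzyme of the last step to triglyceride, was chosen after its values were seen. It was at 625, 2134, 1114 and 1601 CPM with PBS and 1635, 1536, 1973 and 1688 CPM with exendin-4, so that PBS 1 was the lowest of the 8 libraries, as it was for Elovl6. Its log2 fold change was 0.32 and 0.07 without PBS 1. PBS 1 was also the highest library for 10 of the 23 further sterol genes and 7 of the 17 tested further fatty acid genes, against 15.9% of all genes tested.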
